A study of Rattus norvegicus with 9 samples.

Results

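Levels of 9 genes of the vessel wall and the blood-brain barrier were followed in rat brain RNA: the tight junction genes Ocln and Tjp1, the efflux transporter gene Abcb1a, the endothelial genes Tek, Nos3, Vwf and Edn1, and the gelatinase genes Mmp2 and Mmp9. They were set by a list of Ensembl IDs and taken from a table of 32883 rat genes, where all 9 were found. The rule itself uses no measured value, but the list was chosen with earlier results of these data known. The IDs are ENSRNOG00000018297 (Ocln), ENSRNOG00000011077 (Tjp1), ENSRNOG00000008012 (Abcb1a), ENSRNOG00000008587 (Tek), ENSRNOG00000009348 (Nos3), ENSRNOG00000019689 (Vwf), ENSRNOG00000014361 (Edn1), ENSRNOG00000016695 (Mmp2) and ENSRNOG00000017539 (Mmp9). The 9 libraries came from brain tissue of rats after a sham operation (sham 4B, 5B and 9A), rats after middle cerebral artery occlusion (MCAO 3B, 6B and 7A) and rats that had the occlusion and were given Panax notoginseng (PN 3A, 6A and 7A), with 3 libraries in each group. The occlusion blocks the main artery of the lateral brain and models ischaemic stroke, and Panax notoginseng is a herb of traditional medicine known for its saponins. Per the series title, the injury was ischaemia with reperfusion. The sources used here do not give the strain, age, brain region, side, time after surgery or dose, nor whether a library stands for 1 animal or several. The p-values therefore measure only the spread between these libraries, which may be technical. Values of a group are listed in the order 4B, 5B, 9A for sham, 3B, 6B, 7A for MCAO and 3A, 6A, 7A for PN.

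Brain capillaries are lined by endothelial cells that are sealed to each other by tight junctions and that pump many drugs and toxins back into the blood. Ischaemia is known to loosen this barrier, and the gelatinases, which digest the basement membrane and junction proteins, are among the enzymes studied in that process. Endothelial cells are few among the neurons and glia of brain tissue, and Tjp1, Edn1, Mmp2 and Mmp9 are also expressed by other cells, so tissue levels are not those of endothelium alone. In bulk tissue, fewer cells of a type and less RNA per cell cannot be told apart.

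Values were FPKM as the authors deposited them, a unit scaled to transcript length, so levels can be compared between genes. By r across all genes tested, 2 of the 9 libraries were closest to one of their own group. The sums of FPKM lay between 387893 and 445693 per library. Read numbers are not kept in this unit, but the steps between low values put the deepest library at 1.33 times the depth of the shallowest. The table gives no gene symbols and the reference table paired 0 of its IDs with one. Other markers of endothelium, mural cells, leukocytes and choroid plexus could therefore not be looked up, and the tissue label was not checked against markers. A gene was tested when it reached 1 FPKM in at least 3 libraries, which left 15051 genes. All 9 genes passed this filter, Mmp9 through the 3 sham libraries and 2 PN libraries only.

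Tjp1, which encodes the junction scaffold protein ZO-1, was the most abundant of the 9 genes, at 37.0 ± 7.40 FPKM over all libraries (SD, n = 9). Its mean lay above those of 84.1% of the genes tested. Vwf, the gene of the clotting protein von Willebrand factor, followed at 10.8 ± 5.81 FPKM (SD, n = 9). Abcb1a, the gene of the efflux pump P-glycoprotein, was at 7.96 ± 2.49 FPKM (SD, n = 9), and Tek, the gene of the angiopoietin receptor Tie2, was at 7.01 ± 3.11 FPKM (SD, n = 9). Mmp2 at 5.90 ± 4.28 FPKM, Ocln at 4.78 ± 1.92 FPKM, Edn1 at 3.55 ± 1.29 FPKM and Nos3 at 3.46 ± 1.70 FPKM came next (SD, n = 9 each). Mmp9 was the lowest, at 1.34 ± 0.877 FPKM (SD, n = 9), with a mean above those of 7.35% of the genes tested. None of the 9 genes was listed at 0 in any library. From Vwf down to Nos3 the SD of each gene reached past the mean of its neighbour in this order, while Tjp1 in its lowest library (27.4 FPKM) was above the highest value of any other of these genes (22.3 FPKM, Vwf).

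**Figure D1:**
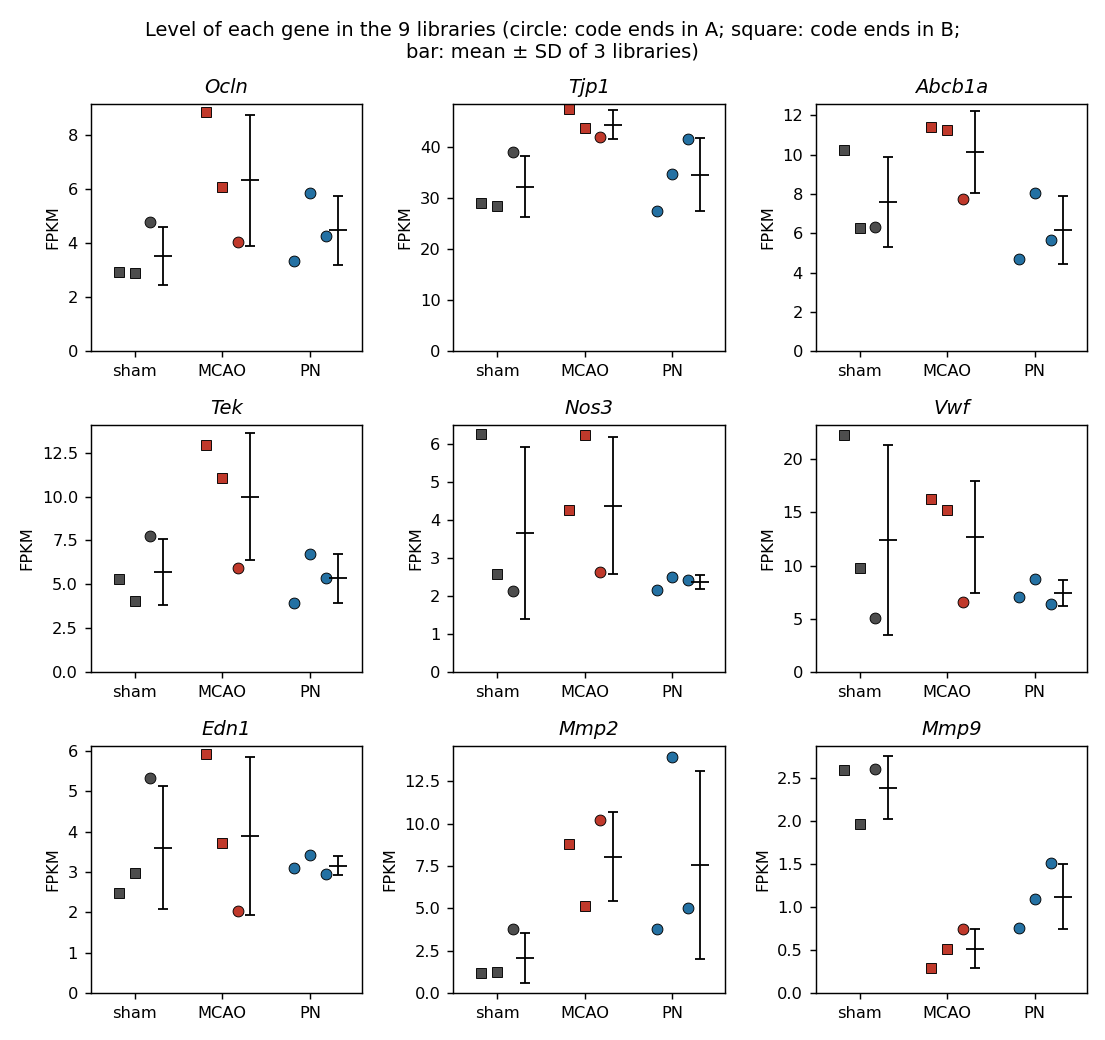
FPKM of each of the 9 genes (vertical axis, linear, from 0) in the sham, MCAO and PN libraries, with 1 point per library, circles for sample codes that end in A, squares for codes that end in B, and a bar for mean ± SD of 3 libraries. All 3 sham libraries lie above all others for Mmp9, and the 4 squares are the 4 highest points for Vwf.

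The genes also differed in how far libraries of one group lay apart. Within groups, Vwf and Mmp2 were among the most variable genes tested, with a residual SD of 0.69 and 0.68 on the log2(FPKM + 1) scale, above those of 90.7% and 90.4% of the genes tested. Nos3 followed with a residual SD of 0.48. Mmp9 (0.22) and Tjp1 (0.23) varied less than most genes tested on this scale. Against other genes of the set, the place of Mmp9 depended on the pseudocount. With 1 the standard error of its differences was 0.24, below those of Ocln (0.30), Tek (0.32) and Nos3 (0.35). With 0.1 it was 0.46, above those of Ocln (0.36), Tek (0.36) and Nos3 (0.44). The place of Mmp9 among all genes tested is not given for 0.1.

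Sequences upstream of the start site are shown for Ocln, Abcb1a and Nos3, because these 3 genes belong to the pairs that varied together across libraries (below) and have an entry in the RefSeq promoter table. Each is the 250 bases before the RefSeq start in assembly GRCr8, written 5′ to 3′ on the strand of the gene. The Ocln window is chr2:33441199-33441448, the Abcb1a window chr4:26397649-26397898 and the Nos3 window chr4:11706582-11706831, all on the minus strand. Capitals mark matches on either strand to the motifs searched, none of which overlapped. These were the TATA box as TATAAA, the GC box as GGGCGG, the AP-1 motif as TGANTCA, the core of the hypoxia response element as ACGTG, the E box as CAGGTG and the ETS motif as AGGAAG.
Ocln: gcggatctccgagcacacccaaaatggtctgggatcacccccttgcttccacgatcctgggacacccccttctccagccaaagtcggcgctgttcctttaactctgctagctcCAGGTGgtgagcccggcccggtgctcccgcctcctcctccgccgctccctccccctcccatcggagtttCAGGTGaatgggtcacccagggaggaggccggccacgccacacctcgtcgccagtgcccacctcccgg
Abcb1a: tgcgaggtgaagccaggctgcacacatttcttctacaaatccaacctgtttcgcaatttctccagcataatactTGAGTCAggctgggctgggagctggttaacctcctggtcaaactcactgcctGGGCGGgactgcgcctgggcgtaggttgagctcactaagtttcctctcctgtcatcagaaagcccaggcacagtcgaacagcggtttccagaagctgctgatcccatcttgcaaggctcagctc
Nos3: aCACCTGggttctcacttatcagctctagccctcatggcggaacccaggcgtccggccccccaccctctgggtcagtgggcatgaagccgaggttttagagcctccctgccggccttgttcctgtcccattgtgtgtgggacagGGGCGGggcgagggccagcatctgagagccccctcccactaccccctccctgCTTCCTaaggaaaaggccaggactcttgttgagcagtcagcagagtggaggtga

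The Ocln window held 2 E boxes, a motif present in 15.9% of the 33469 windows of this kind. The Abcb1a window held 1 AP-1 motif (6.34% of windows) and 1 GC box (30.5%). The Nos3 window held 1 GC box, 1 ETS motif (29.5%) and 1 E box. Abcb1a and Nos3 thus shared the GC box, and Ocln and Nos3 the E box. A match describes the letters only. No source used here names the authors' assembly, so these coordinates do not describe how reads were counted.

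MCAO was compared with sham to ask how the occlusion was reflected in these genes. In the MCAO libraries the gelatinase Mmp9 was lower than in any sham library and the gelatinase Mmp2 was higher, and both tight junction genes and Tek had higher means. The endothelial genes Nos3, Vwf and Edn1 spread as widely within groups as between them. By limma over all genes, 0 of the 9 genes passed at an adjusted p under 0.05, where 0.00664% of all genes tested did. At an unadjusted p under 0.05 there were 3 of 9 genes, against 11.1% of all genes tested. Of these, Tjp1 and Mmp2 were higher in MCAO, as were 4.87% of all genes, and Mmp9 was lower, as were 6.25%. The libraries of sham and MCAO were fully apart in the same 3 of 9 genes, against 19.6% of all genes (8.59% with MCAO higher and 11% with MCAO lower).

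Mmp9, the gene of gelatinase B, was at 2.59, 1.97 and 2.61 FPKM in sham and at 0.288, 0.516 and 0.747 FPKM in MCAO. The lowest sham value was above the highest MCAO value, and no library of either group lay near the other. The mean was 4.63 times as high in sham (2.39 ± 0.367 FPKM, SD, n = 3) as in MCAO (0.517 ± 0.229 FPKM, SD, n = 3). On the log2(FPKM + 1) scale the difference of MCAO from sham was -1.17 ± 0.24 (SE, limma, adjusted p = 0.232), which ranked 48 of 15051 genes by p. With a pseudocount of 0.1, which compresses low values less, it was -2.07 (limma, adjusted p = 0.260). Over all alternatives that kept the gene the adjusted p lay between 0.128 and 0.491.

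Mmp2, the gene of gelatinase A, was at 1.16, 1.26 and 3.76 FPKM in sham and at 8.78, 5.16 and 10.2 FPKM in MCAO. Every MCAO library was higher than every sham library, with sham 9A closest to them. The MCAO mean was 3.92 times the sham mean, and the log2 difference was 1.62 ± 0.47 (SE, limma, adjusted p = 0.348, from 0.209 to 0.670 over the alternatives). Its 95% interval ran from 0.57 to 2.68.

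The FPKM of Mmp2 divided by that of Mmp9, a ratio chosen after both values were seen and given without a test, was 0.446, 0.639 and 1.44 in sham. It was 30.5, 9.999 and 13.7 in MCAO and 4.96, 12.8 and 3.32 in PN. Sham libraries held the 3 lowest ratios, and only PN 6A among the PN libraries reached the range of MCAO. The order of sham below MCAO follows from the values of the 2 genes given above and adds nothing to them. In MCAO the ratio divides by low Mmp9 values, 0.288 to 0.747 FPKM, so its size is uncertain there.

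Tjp1 was at 29.1, 28.4 and 39.0 FPKM in sham and at 47.4, 43.7 and 42.0 FPKM in MCAO. The groups did not overlap, and sham 9A lay close below the MCAO libraries. The MCAO mean was 1.38 times the sham mean, a log2 difference of 0.47 ± 0.19 (SE, limma, adjusted p = 0.434). Ocln, whose protein occludin spans the membrane at the tight junction, was at 2.92, 2.88 and 4.78 FPKM in sham and at 8.85, 6.10 and 4.03 FPKM in MCAO. Here the groups overlapped, since MCAO 7A was below sham 9A. The log2 difference of Ocln was 0.67 ± 0.30 (SE, limma, adjusted p = 0.457).

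Tek was at 5.32, 4.07 and 7.75 FPKM in sham and at 13.0, 11.1 and 5.95 FPKM in MCAO. MCAO 3B and 6B were above every sham library and MCAO 7A was not, an arrangement that Ocln shared. The log2 difference was 0.69 ± 0.32 (SE, limma, adjusted p = 0.464). Abcb1a was at 10.3, 6.25 and 6.30 FPKM in sham and at 11.4, 11.3 and 7.73 FPKM in MCAO, with sham 4B inside the MCAO range. Its log2 difference was 0.39 ± 0.26 (SE, limma, adjusted p = 0.600). In rats a close paralog, Abcb1b, lies beside this gene, and Abcb1a overlaps Rundc3b in the RefSeq annotation, so reads may have been split between them.

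Nos3, the gene of endothelial nitric oxide synthase, was at 6.26, 2.57 and 2.14 FPKM in sham and at 4.26, 6.23 and 2.63 FPKM in MCAO. Each group held both high and low libraries. Nos3 overlaps Atg9b in the RefSeq annotation. No source used here gives the authors' annotation or strand setting, so how reads of the shared stretch were counted is not known. Vwf was at 22.3, 9.82 and 5.11 FPKM in sham and at 16.2, 15.2 and 6.63 FPKM in MCAO. The sham libraries alone spanned 4.37 times from lowest to highest, the whole range of the 9 libraries. Edn1, the gene of the vasoconstrictor endothelin-1, was at 2.48, 2.98 and 5.34 FPKM in sham and at 5.94, 3.72 and 2.02 FPKM in MCAO, again with full overlap. The log2 differences were 0.25 for Nos3, 0.15 for Vwf and 0.06 for Edn1, with intervals of -0.54 to 1.05, -0.90 to 1.21 and -0.69 to 0.80. Without 1 library the difference of Nos3 was 0.63 (sham 4B left out), 0.11 (sham 5B), 0.022 (sham 9A), 0.012 (MCAO 6B) or 0.51 (MCAO 7A). The sign turned for Vwf without sham 9A (-0.30) and for Edn1 without MCAO 3B (-0.23).

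Of the 9 genes, 8 had a higher mean in MCAO than in sham on the log2(FPKM + 1) scale, Mmp9 being the exception, where 48.2% of all genes tested were higher. Ocln overlaps a pseudogene and Tjp1 overlaps 3 short or noncoding RNA genes in the RefSeq annotation. The median difference of the 9 genes was 0.39, against -0.01 over all genes tested. Genes that vary together are not separate observations, and several of these did (below).

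**Figure D2:**
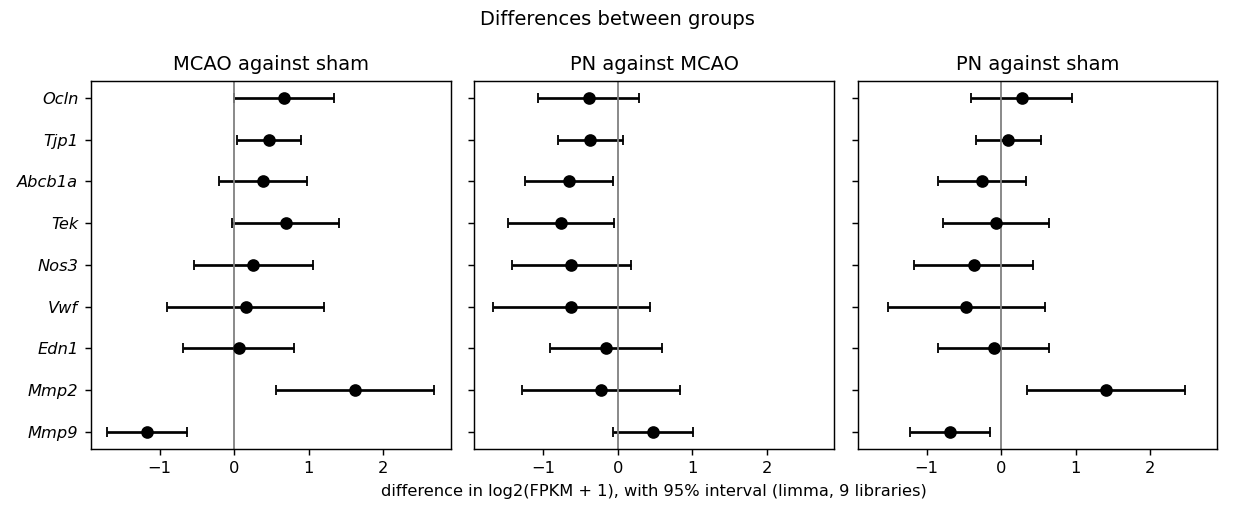
Difference in mean log2(FPKM + 1) for each gene (horizontal axis) in each of the 3 comparisons (MCAO minus sham, PN minus MCAO, PN minus sham), with the 95% interval from limma on 9 libraries. Mmp2 and Mmp9 lie farthest from 0 in MCAO against sham, at 1.62 and -1.17, and none of the 27 differences passed at an adjusted p under 0.05.

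PN was compared with MCAO to ask how the treated rats differed from untreated rats with the occlusion. The means of 8 of the 9 genes were lower in PN, with the lowest unadjusted p for Abcb1a and Tek. The mean of 1 of 9 genes, Mmp9, was higher, against 57.1% of all genes. By limma 0 of the 9 genes passed at an adjusted p under 0.05 (0.00664% of all genes), and 2 of 9 had an unadjusted p under 0.05 (13.2% of all genes). Both of these, Abcb1a and Tek, were lower in PN, as were 4.52% of all genes, and 0 of 9 were higher, as were 8.73%. PN and MCAO were fully apart in 3 of 9 genes (20.3% of all genes), with Tjp1 and Nos3 lower in PN (6.69%) and Mmp9 higher (13.6%). This comparison uses the same MCAO libraries as the one above, so a high MCAO value enters both with opposite sign, and the signs of both cannot be read as separate evidence.

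In PN, Tek was at 3.91, 6.74 and 5.35 FPKM, below MCAO 3B and 6B but across MCAO 7A (5.95 FPKM). The log2 difference of PN from MCAO was -0.76 ± 0.32 (SE, limma, adjusted p = 0.354, from 0.125 to 0.806 over the alternatives). Abcb1a was at 4.69, 8.07 and 5.67 FPKM in PN, and PN 6A alone lay above the lowest MCAO library. Its log2 difference was -0.65 ± 0.26 (SE, limma, adjusted p = 0.346, from 0.0790 with array weights to 0.792 over the alternatives). Array weights give PN 7A a weight of 6.19 and PN 3A one of 0.345.

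Mmp9 was at 0.757, 1.09 and 1.51 FPKM in PN, all above the highest MCAO library (0.747 FPKM), from which PN 3A differed little, and all below the lowest sham library. The PN mean was 2.17 times the MCAO mean, a log2 difference of 0.48 ± 0.24 (SE, limma, adjusted p = 0.413, from 0.0812 with array weights to 0.758 over the alternatives). With a pseudocount of 0.1 the difference was 1.01. Nos3 was at 2.15, 2.51 and 2.41 FPKM in PN, below all MCAO libraries, with a log2 difference of -0.62 ± 0.35 (SE, limma, adjusted p = 0.474) and of -0.14 with the letter of the sample code in the fit. The PN libraries spanned 1.17 times from lowest to highest for Nos3, against 2.37 times in MCAO and 2.93 times in sham. The other libraries with codes in A, sham 9A (2.14 FPKM) and MCAO 7A (2.63 FPKM), were close to these PN values. The spread of Edn1 was also narrow in PN, at 3.09, 3.41 and 2.95 FPKM in PN. These spreads were not tested against each other.

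The junction genes also had lower means in PN than in MCAO. Tjp1 was at 27.4, 34.7 and 41.6 FPKM in PN, with PN 7A just below the lowest MCAO library (42.0 FPKM), and its log2 difference was -0.37 with an interval of -0.80 to 0.06. For Tjp1 it was -0.22 without PN 3A, -0.15 with array weights and -0.51 without PN 7A, and it ran from -0.55 to -0.15 over the alternatives. Ocln was at 3.32, 5.85 and 4.26 FPKM in PN, across the lower part of the MCAO range, with a log2 difference of -0.39 that was -0.15 without MCAO 3B, -0.23 without PN 3A and -0.64 without MCAO 7A. Mmp2 was at 3.75, 14.0 and 5.01 FPKM in PN, so that PN 6A held the highest value of all libraries while PN 3A and 7A lay below every MCAO library. Its log2 difference was -0.22 with an interval of -1.28 to 0.84, and its sign turned without PN 3A (0.11). Vwf was at 7.02, 8.77 and 6.44 FPKM in PN, with a log2 difference of -0.62 ± 0.47 (SE, limma, adjusted p = 0.575) that turned to 0.21 with the letter of the sample code in the fit. The median difference of the 9 genes was -0.39, against 0.07 over all genes tested.

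The treated rats were set against the sham-operated rats to ask which differences from animals without the occlusion were present. The gelatinases differed most here too: Mmp2 was higher in PN and Mmp9 lower, while the 7 other genes had intervals on both sides of 0. By limma 0 of the 9 genes passed at an adjusted p under 0.05 (0.0199% of all genes), and 2 of 9 had an unadjusted p under 0.05 (4.25% of all genes), with Mmp2 higher in PN (3.4%) and Mmp9 lower (0.85%). The libraries were fully apart in 1 of 9 genes (8.71% of all genes), Mmp9, which was lower (2.53%), and none was higher (6.18%). Means were higher in PN for 3 of 9 genes, Ocln, Tjp1 and Mmp2, against 55.5% of all genes. The PN mean of Mmp9 was 1.12 ± 0.377 FPKM (SD, n = 3), with a log2 difference from sham of -0.69 ± 0.24 (SE, limma, adjusted p = 0.974). With a pseudocount of 0.1 this difference was -1.07. The PN mean of Mmp2 was 7.57 ± 5.56 FPKM (SD, n = 3), with a log2 difference of 1.40 ± 0.47 (SE, limma, adjusted p = 0.974). PN 3A (3.75 FPKM) lay just below sham 9A (3.76 FPKM), and without PN 6A the difference was 0.91. With the letter of the sample code in the fit it was 0.86 ± 0.52 (SE, limma, unadjusted p = 0.135), no longer under 0.05.

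The intervals for the junction genes in PN against sham ran from -0.33 to 0.53 for Tjp1 and from -0.40 to 0.95 for Ocln. Abcb1a had a difference of -0.26 and Tek one of -0.07. The differences of Nos3 (-0.37) and Vwf (-0.47) rested on sham 4B, the library with the highest value of both genes, and without it they were 0.0026 and 0.038. The comparison of PN with sham shares its libraries with the other comparisons.

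The letter that ends the sample code moved with Vwf. The 4 libraries with codes in B (sham 4B and 5B, MCAO 3B and 6B) had 9.82 to 22.3 FPKM of Vwf, and the 5 libraries with codes in A had 5.11 to 8.77 FPKM, so the letters did not overlap. All PN libraries have codes in A, and no source used here says what the letter marks. With the letter as a term beside the groups, a comparison added after this order was seen, libraries in B were higher in Vwf by 1.25 ± 0.30 (SE, limma, adjusted p = 0.912). In Nos3 they were higher by 0.73 ± 0.31 (SE, limma, adjusted p = 0.912). Of the 9 genes 0 passed at an adjusted p under 0.05 (0% of all genes), 2 of 9 had an unadjusted p under 0.05 (4.78% of all genes), 1 of 9 was higher in B without overlap (0.983% of all genes) and 0 of 9 were lower (1.57%). With the letter in the fit the difference of PN from MCAO was 0.21 in Vwf and -0.14 in Nos3, where it was -0.62 in both without it. It was -0.38 in Abcb1a (limma, unadjusted p = 0.238) and -0.67 in Tek (limma, unadjusted p = 0.139), so neither of these genes kept an unadjusted p under 0.05. The standard errors also rose, from 0.26 to 0.30 in Abcb1a and from 0.32 to 0.41 in Tek. Since all PN libraries are in A, the letter term rests on sham and MCAO, where only sham 9A and MCAO 7A are in A. A loss of a low p in this fit can therefore be a loss of precision. In Mmp2 the difference of PN from MCAO was -0.77 with the letter, against -0.22 without it, and in Mmp9 it was 0.32, against 0.48. Among the A libraries alone Vwf was at 6.63 FPKM in the single MCAO library and at 6.44 to 8.77 FPKM in PN. Among the B libraries alone Vwf was at 22.3 and 9.82 FPKM in sham and at 16.2 and 15.2 FPKM in MCAO, so the MCAO values lay between the sham values. No PN library has a code in B, so PN could not be compared within that letter.

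Across the libraries the genes did not vary as a single block. In the plot of deviations by library, MCAO 3B had the highest level of 5 of the 9 genes (Ocln, Tjp1, Abcb1a, Tek and Edn1) and was among the 3 highest for 8, all except Mmp9, for which it was the lowest. MCAO 6B was among the 3 highest for 7 genes. MCAO 7A, of the same group, was among the 3 highest for 2 genes, Tjp1 and Mmp2, and among the 3 lowest for 3. PN 3A lay below the mean of every one of the 9 genes and was the lowest library for Tjp1, Abcb1a and Tek. Its column name has another prefix than those of PN 6A and 7A.

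**Figure D3:**
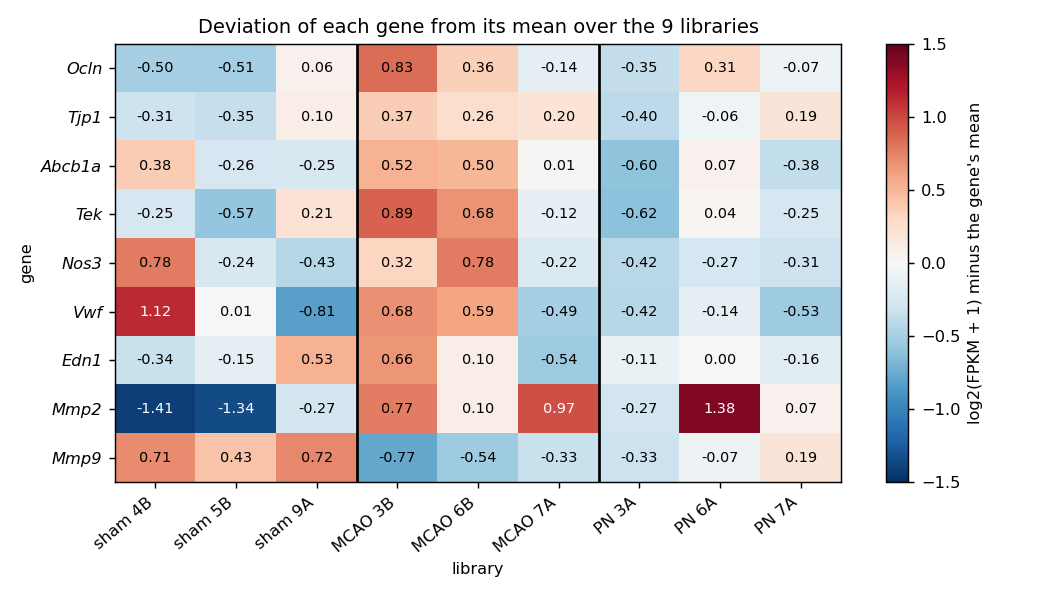
Deviation of each gene (rows) from its own mean in each library (columns), in log2(FPKM + 1), with red above and blue below the mean and lines between the sham, MCAO and PN groups. MCAO 3B is above the mean in 8 of 9 genes and PN 3A in 0 of 9.

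Correlations over the 9 libraries were computed for all 36 pairs of these genes on log2(FPKM + 1), with exact two-sided permutation tests and Benjamini-Hochberg adjustment over the pairs. Libraries were permuted freely over groups and code letters, so shifts that both genes share between groups or letters enter r and p. With group means removed 0 pairs passed, but the few permutations within groups make passing hard (below). With Pearson's r, 3 pairs passed: Nos3 with Vwf, Ocln with Tek, and Abcb1a with Nos3. With Spearman's rho, 1 pair passed, Ocln with Tek. The share of pairs of all genes that reach such an r or p was not computed, so these counts have no background beside them. Over all 36 pairs, 25 had an r above 0, with a median of 0.22. Among the 7 genes other than the gelatinases, 20 of 21 pairs had an r above 0, with a median of 0.49. Over pairs of all genes tested (from every 10th gene) the share above 0 was 51.2%, with a median of 0.02. Mmp2 had an r below 0 with Nos3 (-0.22) and Vwf (-0.27), and above 0 with Ocln (0.71), Tjp1 (0.64), Tek (0.48), Abcb1a (0.18) and Edn1 (0.18). All 8 pairs with Mmp9 had an r below 0, from -0.66 to -0.15, and none of them passed. The sign was not stable: with group means removed r was 0.25 for Mmp2 with Mmp9, 0.54 for Tjp1 with Mmp9 and 0.01 for Abcb1a with Mmp9. With single libraries left out the highest r with Mmp9 was 0.08 for Nos3, 0.11 for Vwf and 0.25 for Edn1.

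Ocln and Tek, a junction gene and an endothelial receptor gene, had r = 0.91 (exact permutation p = 0.000502, adjusted p = 0.0181) and rho = 0.92 (exact permutation p = 0.00131, adjusted p = 0.0472). Without the 2 libraries farthest from the median of Ocln, MCAO 3B and sham 5B, r was 0.81, and with group means removed it was 0.95. With 1 library left out in turn r stayed between 0.85 and 0.94. The pair passed in 6 of those 9 settings and missed the threshold without sham 5B, MCAO 3B or MCAO 6B. Tek ranked 39 among the 15051 genes tested by r with Ocln, and Ocln ranked 37 by r with Tek. Tjp1 had r = 0.81 with Tek and r = 0.80 with Ocln, both with an adjusted p of 0.0644 (exact permutation).

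Nos3 and Vwf had r = 0.92 (exact permutation p = 0.00152, adjusted p = 0.0274) and rho = 0.85 (exact permutation p = 0.00607, adjusted p = 0.0729). Among the 15051 genes tested, Nos3 ranked 6 by r with Vwf, and Vwf ranked 15 by r with Nos3. Without the 2 libraries farthest from the median of Nos3, sham 4B and MCAO 6B, r was 0.90. With single libraries left out r lay between 0.87 and 0.95, and the pair passed in 4 of 9 settings, missing the threshold without sham 4B, 5B or 9A or MCAO 3B or 6B. The libraries were uneven in Nos3, with sham 4B, MCAO 6B and MCAO 3B at 4.26 to 6.26 FPKM and the 6 others at 2.14 to 2.63 FPKM. Among those 6 the correlation with Vwf was r = 0.61 (exact permutation p = 0.188, n = 6) and rho = 0.54 (exact permutation p = 0.297, n = 6). These 6 were set apart by Nos3 itself, which narrows its range, so the lower r among them does not say on which libraries the relation rests. The 3 others have codes in B. Abcb1a and Nos3 had r = 0.86 over 9 libraries (exact permutation p = 0.00246, adjusted p = 0.0295) and rho = 0.77 (adjusted p = 0.153). This pair had r = 0.90 without MCAO 3B and PN 3A, the libraries farthest from the median of Abcb1a. That choice kept sham 4B and MCAO 6B, the libraries with the highest Nos3. Among the 6 libraries low in Nos3, r was 0.68 (exact permutation p = 0.139) and rho was 0.43 (exact permutation p = 0.419), with the same limit of a narrowed range. Abcb1a with Nos3 passed in 1 of 9 settings with a single library left out, without PN 6A. Among the genes tested, Nos3 ranked 84 by r with Abcb1a, and Abcb1a ranked 73 by r with Nos3. Each code letter holds fewer than 6 libraries, the smallest number over which a correlation was computed here, so none is given within letters. With the other endothelial genes, Nos3 and Vwf had r of 0.49 and 0.36 (Tek) and of 0.03 and 0.05 (Edn1), and none of these pairs passed. Abcb1a had r = 0.76 with Tek and 0.56 with Ocln, which did not pass either. Without sham 4B these were 0.89 and 0.83, and Tek had r = 0.76 with Nos3 and 0.64 with Vwf. Lower values remained without that library, such as 0.32 for Tjp1 with Vwf and 0.29 for Nos3 with Edn1. None of these pairs passed without sham 4B.

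**Figure D4:**
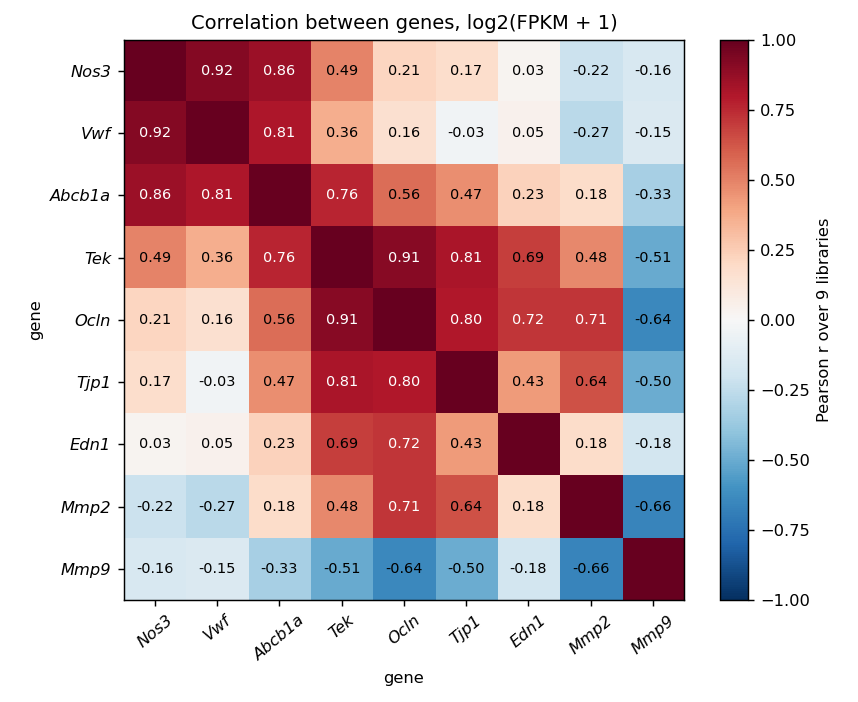
Pearson r between each pair of genes over the 9 libraries on log2(FPKM + 1), from -1 (blue) to 1 (red). Nos3, Vwf and Abcb1a form one corner with r of 0.81 to 0.92, Tek, Ocln and Tjp1 another with r of 0.80 to 0.91, and every value for Mmp9 is below 0. The corners are not sharply apart, since Abcb1a has r = 0.76 with Tek.

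**Figure D5:**
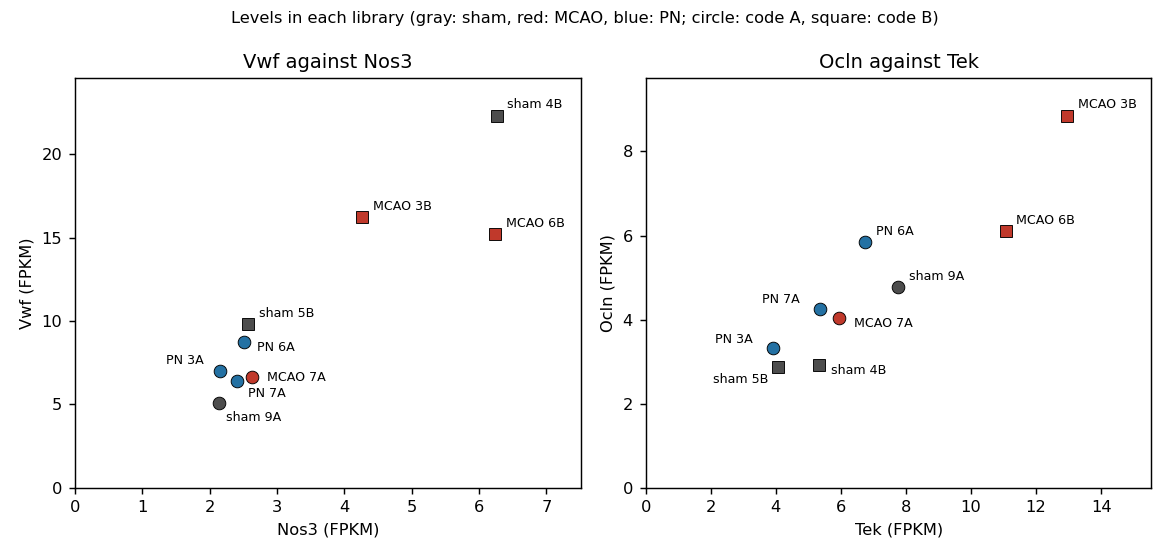
FPKM of Vwf against Nos3 (left) and of Ocln against Tek (right), both axes linear from 0, with 1 point per library, colours for sham (gray), MCAO (red) and PN (blue) and squares for codes in B. On the left 3 libraries with codes in B stand apart from the other 6, and on the right MCAO 3B and 6B are at the upper end.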

How the data were processed

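The authors deposited 1 table of FPKM values (fragments scaled to transcript length and library size), per the file headers. StringTie 1.3.1, HISAT2, Bowtie2 2.2.8 and fastp 0.18.0 were used, per the submitters' processing notes, which give no roles. The sources used here name no genome build, annotation release or strand setting. Columns were matched to samples by the code that ends their names. The name prefix differs within groups: sham 9A has another than sham 4B and 5B, and PN 3A another than PN 6A and 7A. No source used here says what the prefix marks, and it was not put in any fit. The code 7A ends 2 titles, and its columns were assigned by the name prefix they share with columns of known group. Gene names come from the pairs of symbol and Ensembl ID that defined the set. The genes and lists were chosen with earlier results of these data known. All 9 genes are named, in order of role. The lists of other endothelial, mural, protease and cell type genes were not applied, because the IDs had no symbols.

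Genes that reached 1 FPKM in 3 or more of the 9 libraries were tested on log2(FPKM + 1), a scale that understates the change of low genes, with limma 3.58.1 in R 4.3.3: 1 fit of 3 group means, a mean-variance trend, two-sided tests, Benjamini-Hochberg adjustment over all genes tested and a threshold of 0.05. An exact permutation test of 3 against 3 libraries cannot go below 0.1, so none was run on single genes. The fit was tested on simulated data, with differences added only to more abundant genes and with independent noise. That test does not cover genes as low as Mmp9 or shifts shared by libraries of a code letter. Correlations used scipy 1.17.1 and numpy 2.4.6 under Python 3.11.15. Alternatives were another pseudocount, filter, scaling or variance model, the code letter or number in the fit, and libraries left out.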

Additional observations from a re-analysis of the deposited data

How the results depend on the processing

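None of the 9 genes passed at an adjusted p under 0.05 in any comparison under any alternative run (21 for MCAO against sham, 22 for PN against MCAO, 21 for PN against sham); the smallest adjusted p was 0.0790 (limma with array weights, Abcb1a in PN against MCAO). In that setting 377 of 15051 genes passed, where 1 passed as reported, and 0 to 5 passed in every other setting and comparison. Leaving out both 7A libraries, whose columns share a code, was added after the data were seen, as were correlations with libraries left out. Of 567 recomputed differences 544 kept their sign. In MCAO against sham the sign of Vwf turned without sham 9A (-0.30), MCAO 3B (-0.056) or MCAO 6B (-0.011), and that of Edn1 without sham 4B (-0.12), sham 5B (-0.023) or MCAO 3B (-0.23), with ranges over single libraries left out of -0.30 to 0.66 for Vwf and -0.23 to 0.36 for Edn1. In PN against MCAO it turned for Vwf with the code letter as a covariate (0.21), for Edn1 without MCAO 3B (0.13) and for Mmp2 without both 7A libraries (0.12) or PN 3A (0.11), with ranges over single libraries of -0.46 to 0.13 for Edn1 and -0.72 to 0.11 for Mmp2. In PN against sham the code letter as a covariate turned Tjp1 (-0.0083), Abcb1a (0.0053), Tek (0.019), Nos3 (0.12) and Vwf (0.37). Tjp1 there also turned without PN 7A or both 7A libraries (-0.043) and under array weights once PN 7A was omitted (-0.090), Tek without sham 9A (0.14) or PN 3A (0.10), Nos3 and Vwf without sham 4B (0.0026 and 0.038) and Edn1 without sham 9A (0.16). The ranges over single libraries were -0.043 to 0.25 for Tjp1, -0.26 to 0.14 for Tek, -0.60 to 0.0026 for Nos3, -0.93 to 0.038 for Vwf and -0.28 to 0.16 for Edn1. The causes were not tested. Nos3, Edn1 and Mmp9 have no value with the filter of 5 FPKM.

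With the code number as a replicate block, 0 of the 9 genes and 0 of all 15051 genes passed in PN against MCAO. The deviations from group means of MCAO and PN libraries with the same number correlated at 0.06, -0.40 and -0.16 across genes, and no label says that a number pairs samples. Of the 36 correlations, 3 passed with median-of-ratios scaling too, 0 passed with group means removed (216 permutations within groups, whose smallest p, 0.00463, could not pass over 36 pairs unless several shared it; r was 0.95 for Ocln with Tek, 0.91 for Nos3 with Vwf and 0.81 for Abcb1a with Nos3), and 0 to 4 passed with single libraries left out. Depth in reads is unknown, so no counting limit is given for Mmp9.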
